A study of Mus musculus with 18 samples.

Results

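Smco1, Sh3rf2, Filip1l, Hivep2 and Eepd1 are 5 of the 22180 genes measured in mouse gastrocnemius, a calf muscle. They were picked by name because their signal lay lower in the leg that had received tunicamycin, and because their part in muscle is little described. The measured difference between tunicamycin and saline legs therefore chose them, so their own changes are given as values with no test.

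Total RNA came from 9 wild-type mice, which the labels call female and of a mixed C57Bl6/J-SV129 background, with no age given. In each animal 1 gastrocnemius was injected with 30 µg of tunicamycin in 30 µL and the contralateral muscle with saline, and both were taken 24 h later. Each muscle went onto 1 MoGene-2_0-st Affymetrix array, giving 9 saline and 9 tunicamycin arrays. The animal methods of the study instead speak of male C57BL/6J mice, and strain and sex were not settled here. In mouse 9 the Xist signal was 4.79 in the saline leg and 4.90 in the tunicamycin leg, whereas both legs of every other mouse lay between 9.22 and 9.52. This is at odds with the female label, so values without mouse 9 are also given. The contralateral saline leg shares the circulation of the treated leg, and no uninjected muscle was analysed here.

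Tunicamycin stops the attachment of N-linked sugars in the endoplasmic reticulum (ER), so that proteins misfold there and the unfolded protein response is switched on. That response raises chaperones and slows the making of many other proteins. The 5 genes come from separate families. Smco1 encodes a single-pass membrane protein with coiled coils whose function is not established. Sh3rf2 encodes a RING-finger protein with SH3 domains known from cell studies to bind protein phosphatase 1 and to lower its relative Sh3rf1, a scaffold of the JNK stress-kinase cascade. Filip1l is a relative of the filamin A-interacting protein Filip1 and restrains migration and WNT signalling in human cells. Hivep2, also known as Schnurri-2, is a large zinc-finger protein that binds NF-kB-like DNA sites and works with SMAD proteins in BMP signalling. Eepd1 carries a nuclease-like domain, acts on stalled replication forks in human cells and, in macrophages, is a target of the liver X receptor (LXR) that aids cholesterol efflux.

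The DNA just before the transcription start was taken from RefSeq (assembly GRCm38.p6) for 4 of the 5 genes, leaving out Sh3rf2. It is shown as a description, because being lower is the rule that picked the 5 genes and does not imply a shared element. Each stretch holds the 250 bases before the start, on the plus strand, 5′ to 3′. The windows are chr9:25481347-25481596 for Eepd1, chr10:13966129-13966378 for Hivep2, chr16:32271230-32271479 for Smco1 and chr16:57548992-57549241 for the downstream of 2 starts of Filip1l. Capitals mark GC boxes (GGGCGG or its reverse complement), E-boxes (CANNTG) and the short cyclic AMP response element (TGACG, either strand).
Eepd1: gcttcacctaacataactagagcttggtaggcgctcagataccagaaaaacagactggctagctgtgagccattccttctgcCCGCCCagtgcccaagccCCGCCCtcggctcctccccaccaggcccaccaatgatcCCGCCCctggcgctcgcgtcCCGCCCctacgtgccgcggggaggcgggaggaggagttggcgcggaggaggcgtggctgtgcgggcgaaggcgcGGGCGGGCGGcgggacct
Hivep2: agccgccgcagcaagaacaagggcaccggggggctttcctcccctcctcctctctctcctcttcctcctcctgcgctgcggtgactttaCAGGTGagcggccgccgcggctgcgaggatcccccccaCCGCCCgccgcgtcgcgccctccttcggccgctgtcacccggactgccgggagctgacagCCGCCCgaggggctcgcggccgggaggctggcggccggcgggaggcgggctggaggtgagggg
Smco1: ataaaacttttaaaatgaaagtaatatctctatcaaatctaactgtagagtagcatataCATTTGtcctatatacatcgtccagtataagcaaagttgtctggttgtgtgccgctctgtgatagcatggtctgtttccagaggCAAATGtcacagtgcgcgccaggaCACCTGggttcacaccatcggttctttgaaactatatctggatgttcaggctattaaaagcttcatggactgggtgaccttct
Filip1l: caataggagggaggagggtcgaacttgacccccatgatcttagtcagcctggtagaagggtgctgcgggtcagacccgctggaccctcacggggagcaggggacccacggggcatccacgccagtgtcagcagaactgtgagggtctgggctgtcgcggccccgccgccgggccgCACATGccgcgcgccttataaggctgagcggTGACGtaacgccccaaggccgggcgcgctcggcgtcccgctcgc

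The Eepd1, Hivep2 and downstream Filip1l windows were rich in G and C and in CG dinucleotides (23, 29 and 25, against a median of 6 over all windows), and the Smco1 window, with 5, was not. The Eepd1 window was 68.8% G and C and held 6 GC boxes, those starting 18 and 14 bases before the start overlapping each other. At least as much G and C was found in 11% of 32851 RefSeq windows of this length, and 32.7% held any GC box. The Hivep2 window was 75.2% G and C, with 2 GC boxes and 1 E-box. The Smco1 window was A- and T-rich (40.8% G and C, against a median of 52.4% over all windows), with 0 GC boxes and 3 E-boxes, at 191, 107 and 83 bases before the start. E-boxes are common, being found in 66.2% of all windows. The downstream Filip1l window (68.8% G and C) held 1 E-box and 1 TGACG, a sequence present in 17.8% of windows, and the upstream one (51.2% G and C) held none of the marked letters. Some further elements were in 0 of the 5 windows, which cover 4 genes and leave out Sh3rf2. They were the ER stress response element (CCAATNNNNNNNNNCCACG, either strand, 0.113% of windows) and the full cyclic AMP response element (TGACGTCA, 1.55%). The C/EBP-ATF element (TGATGNAA, 3.45%) and the D-box palindrome of PAR-bZIP factors (TTANNTAA, 5.43%) were also absent from these windows. The absence says only that these letters are not in these bases. A shorter D-box form, TTATG on either strand, was found in 25.3% of all windows. Among the windows of these genes it was found only in that of Eepd1, 239 bases before the start on the minus strand. It is not in capitals above.

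All signals below are log2 values of the deposited arrays, so a difference of 1 is a doubling on the array scale, and array signals understate large changes. Smco1 ran from 7.98 to 8.98 in the 9 saline legs, with a median of 8.40, and from 7.31 to 8.25 in the 9 tunicamycin legs, with a median of 7.76. The ranges overlapped, but 6 of 9 tunicamycin legs lay below every saline leg. Its mean went from 8.45 ± 0.32 to 7.82 ± 0.28 (SD, n = 9), a mean difference of -0.63 ± 0.32 (SD over 9 mice), or 1.55-fold lower. This was the 18th lowest change of 22180 genes, and the deepest of the 5.

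Sh3rf2 ran from 7.90 to 8.82 in saline legs, with a median of 8.48, and from 7.25 to 8.21 in tunicamycin legs, with a median of 7.97. A single low saline leg, that of mouse 8, stood at 7.90, and the other 8 saline legs lay above every tunicamycin leg. The mean difference was -0.56 ± 0.41 (SD, n = 9), 1.48-fold lower, with the widest spread between mice among the 5. The fall of Sh3rf2 was -1.23 in mouse 3 and -0.036 in mouse 8, whose saline leg was the lowest and whose tunicamycin leg, at 7.86, lay near the mean of 7.89.

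Filip1l ran from 7.72 to 8.83 in saline legs, with a median of 8.38, and from 7.44 to 8.35 in tunicamycin legs, with a median of 7.81. Its groups overlapped most: 4 tunicamycin legs lay below all saline legs, and 6 saline legs above all tunicamycin legs. The mean difference was -0.53 ± 0.30 (SD, n = 9), 1.44-fold lower. Mouse 2 showed the deepest fall of Filip1l, -0.95, and mice 4 and 8 hardly any, -0.15 and -0.065.

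Hivep2 was the steadiest gene in saline, from 8.38 to 8.74 with a median of 8.51, and ran from 7.86 to 8.44 in tunicamycin legs, with a median of 8.04. Of the 9 tunicamycin legs, 8 lay below every saline leg, and the exception was that of mouse 9. The mean difference was -0.47 ± 0.20 (SD, n = 9), 1.38-fold lower and the smallest of the 5. A second probeset, which the annotation also assigns to the predicted gene Gm20114, was left out of the gene value. For this Hivep2 probeset the mean went from 6.04 to 5.67, a difference of -0.38, lower in 9 of 9 mice.

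Eepd1 ran from 8.69 to 9.14 in saline legs, with a median of 8.95, and from 8.00 to 8.81 in tunicamycin legs, with a median of 8.37. The tunicamycin legs of mice 1 and 9 were the only ones to stay within the saline range, and 8 of 9 saline legs lay above every tunicamycin leg. The mean difference was -0.55 ± 0.27 (SD, n = 9), 1.47-fold lower. Eepd1 also spread out most under tunicamycin: its SD across tunicamycin legs was 1.95 times that across saline legs, against 1.48 times for Hivep2, 1.25 for Sh3rf2, 0.87 for Smco1 and 0.79 for Filip1l.

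**Figure D1:**
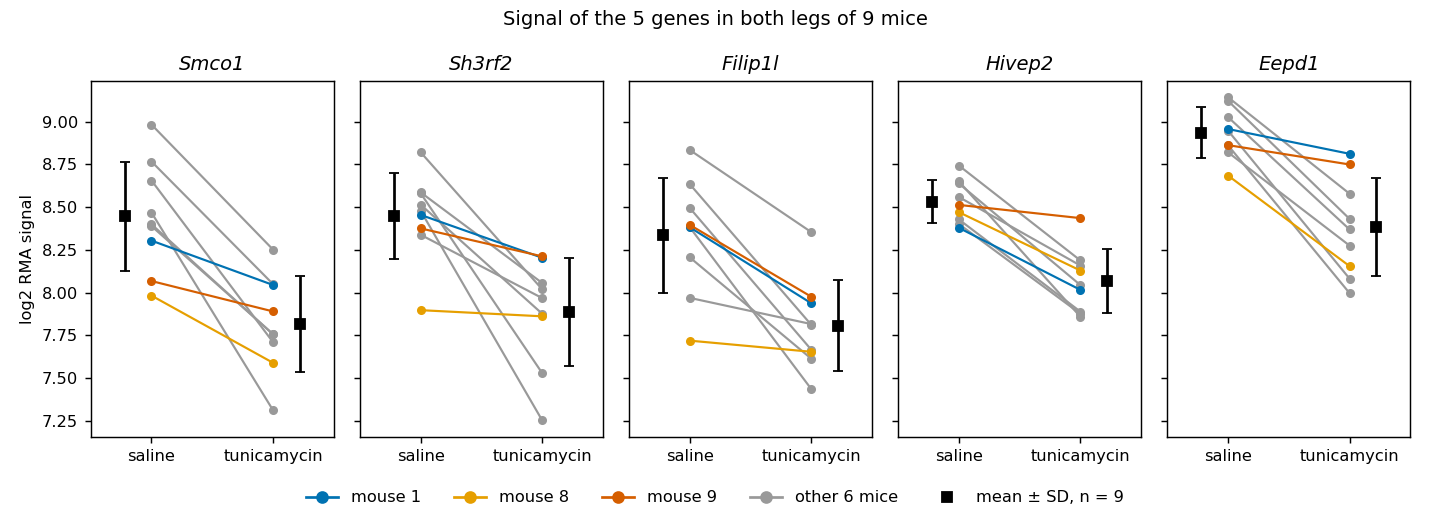
Log2 signal (y axis) of each of the 5 genes in the saline and tunicamycin leg (x axis) of 9 mice, each line joining both legs of 1 mouse, with mice 1, 8 and 9 in colour and black squares giving mean ± SD. Every line goes down, and mouse 8 starts lowest for Smco1, Sh3rf2, Filip1l and Eepd1.

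The 5 genes were lower in 9 of 9 mice, a pattern shared by 3.69% of all genes. Other genes were tested with limma, a linear-model test with the mouse as a block and Benjamini-Hochberg adjustment over 22180 genes, and called at an adjusted p under 0.05. Of all genes, 10.9% were called, 6.15% lower and 4.72% higher. Because this contrast chose the 5 genes, nothing is read from their falling in 9 of 9 mice. Without mouse 9 the mean differences were -0.69 for Smco1, -0.61 for Sh3rf2, -0.54 for Filip1l, -0.51 for Hivep2 and -0.61 for Eepd1, each a little larger than with it.

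The size of the fall differed between mice. The mean change over the 5 genes was deepest in mouse 3 (-0.89), followed by mouse 2 (-0.79), mouse 6 (-0.71) and mouse 5 (-0.68). Mice 4 and 7 lay at -0.56, and the shallowest were mouse 1 (-0.29), mouse 8 (-0.27) and mouse 9 (-0.19). Mouse 3 gave the deepest fall of Smco1, Sh3rf2 and Eepd1, and mouse 9 the shallowest of Smco1, Hivep2 and Eepd1. Mouse 9 gave the highest change for 18.2% of all genes and for 14.5% of those above the median level. Among the latter, where the 5 genes lie, mouse 9 also gave the lowest change for 19.4%.

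Mouse 8 was shallow in another way. Its saline leg was the lowest of the 9 saline legs for 4 of the 5 genes, Smco1, Sh3rf2, Filip1l and Eepd1, as it was for 12.7% of all genes. Its falls in Sh3rf2 and Filip1l were the smallest of all mice, while Eepd1 fell by 0.53 there, close to the Eepd1 median of -0.56. In mice 1 and 9 the order was turned: Filip1l fell by 0.44 and 0.42, but Eepd1 by only 0.15 and 0.11. The r between the change and the saline level was -0.66 for Filip1l, -0.63 for Sh3rf2, -0.61 for Smco1, -0.42 for Hivep2 and -0.15 for Eepd1 (n = 9 mice each). The change contains the saline value, so such coefficients lean below 0 by construction, and they are descriptions.

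**Figure D2:**
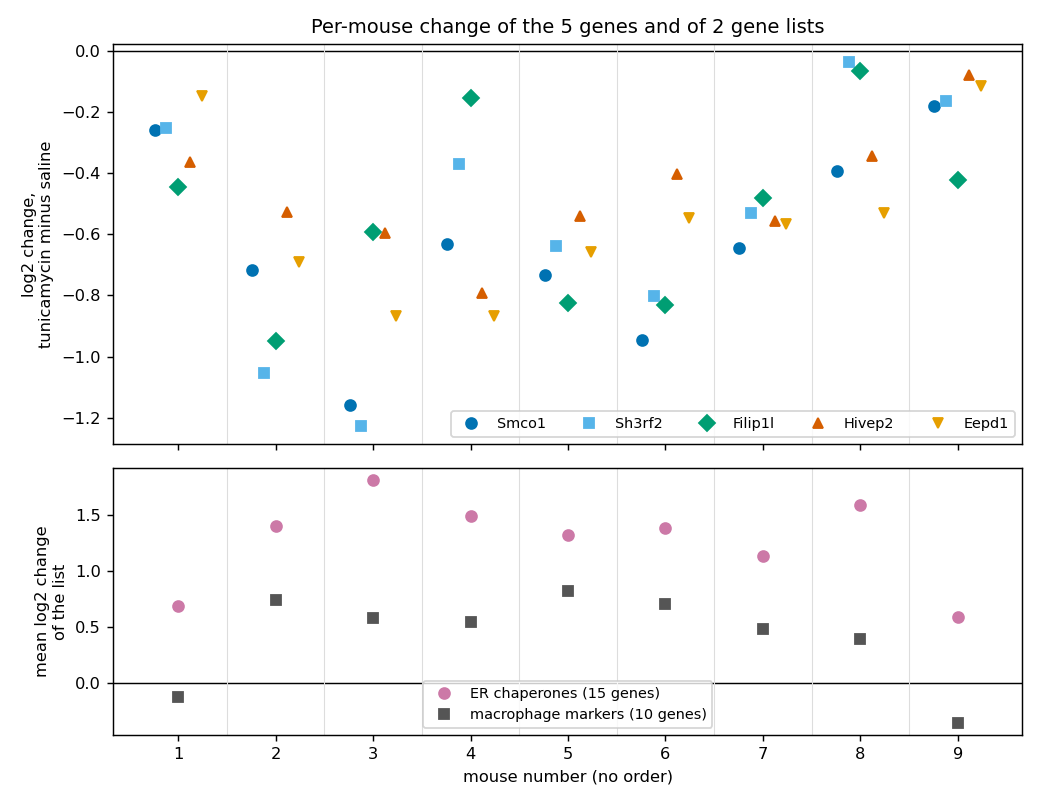
Upper panel, log2 change (tunicamycin minus saline) of each of the 5 genes in each of 9 mice; lower panel, mean log2 change of 15 ER chaperone genes and 10 macrophage markers in the same mice. Mice 1 and 9 are low in both lists and shallow for Eepd1 (-0.15 and -0.11), whereas mouse 8 has a chaperone rise of 1.59 with falls of only 0.036 in Sh3rf2 and 0.065 in Filip1l.

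The falls ran together over the 9 mice to different degrees. Changes of Smco1 and Sh3rf2 had a Pearson r of 0.877 (Spearman rho 0.90), and r was 0.774 without the 2 mice farthest from the Smco1 median. Of all other genes, 0.433% had as high an r with Smco1. Hivep2 and Eepd1 had an r of 0.865 (rho 0.90, and 0.745 without the 2 farthest mice), reached by 0.428% of genes for Hivep2 and 0.631% for Eepd1. Smco1 and Eepd1 followed with 0.794 (rho 0.717) and Sh3rf2 and Filip1l with 0.742 (rho 0.85). Filip1l ran apart from Hivep2 and Eepd1, with an r of 0.0345 to the former and 0.124 to the latter, values that 48.6% and 39.5% of genes reached with Filip1l. The median over the 10 pairs was 0.607, and 0.432 without mice 1 and 9. These coefficients describe 9 mice in which each change shares its arrays with every other, and the changes are the values that chose the genes.

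In the saline legs alone, 9 of 10 pairs of genes had an r above 0, from -0.152 for Smco1 and Hivep2 to 0.782 for Sh3rf2 and Filip1l, with a median of 0.553. Saline levels are part of the difference that chose the genes and share their arrays, so these coefficients over 9 legs are also a description. Sh3rf2 and Filip1l had an r of 0.782 (rho 0.783), with r = 0.72 without mice 6 and 8. Filip1l and Eepd1 had an r of 0.752 (rho 0.60), which was 0.287 without mice 7 and 8 and so rested on those animals. Smco1 and Sh3rf2 had an r of 0.685 (rho 0.75) and 0.684 without mice 5 and 8. Hivep2, by contrast, had saline coefficients from -0.152 to 0.157 with the other 4 genes. Without mouse 8 the median over the pairs was 0.181, so that median rested mainly on 1 animal. The pairs of Sh3rf2 with Filip1l and with Smco1 did not, as the values of 0.72 and 0.684 also leave mouse 8 out.

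**Figure D3:**
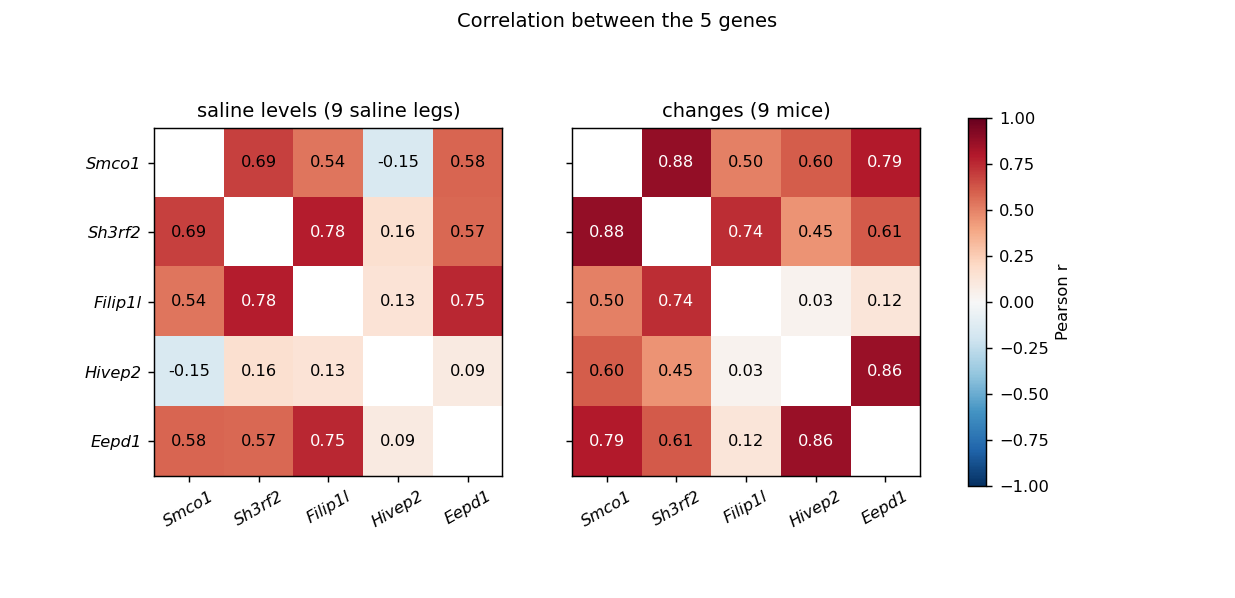
Pearson r between each pair of the 5 genes, for the levels in 9 saline legs (left) and for the changes in 9 mice (right), on a colour scale from -1 (blue) to 1 (red) with each r printed in its cell. Hivep2 is near 0 with the other genes in saline, but its change has an r of 0.865 with that of Eepd1, while Filip1l and Hivep2 changes have 0.0345.

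The genes whose change ran most like each of the 5 were sought among 10409 genes above the median level, by Pearson r over 9 mice. With so many genes and 9 mice, high coefficients turn up readily, and they are given as a description. For Smco1 they were Mlxipl, a glucose-responsive transcription factor (r = 0.976), Myorg, a glycosidase named for its part in myogenesis (r = 0.975), and the transcription factor Sp4 (r = 0.957). For Sh3rf2 they were Itgb1bp2, which encodes melusin, an integrin partner of striated muscle (r = 0.983, the same order of mice as Sh3rf2), Fam214a (r = 0.967) and the phosphatase Pgp (r = 0.961). For Eepd1 they were the interleukin-6 receptor Il6ra (r = 0.990), Apol6 (r = 0.971) and the glucose 6-phosphate transporter Slc37a4 (r = 0.965). For Hivep2 they were Sorbs3, which encodes the adhesion protein vinexin (r = 0.972), the transporter Abcb6 (r = 0.971) and the co-repressor subunit Tbl1xr1 (r = 0.957). For Filip1l they were Btbd1 (r = 0.965), the mitochondrial ribosomal protein Mrpl16 (r = 0.941) and the small heat-shock protein Hspb6 (r = 0.925). A like course over mice did not mean a like size: Hspb6 had a mean change of -0.052 and Abcb6 of -0.094, where Filip1l had -0.53 and Hivep2 -0.47.

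Relatives of the 5 genes played no part in choosing them, and limma called 1 of the 8 measured. That is near the 10.9% called over all genes, so the count does not set the relatives apart. The 1 called was Filip1, which fell by 0.19 ± 0.055 (moderated SE, 9 mice, limma adjusted p = 0.0454). It was lower in 8 of 9 mice, with a mean of 8.04 ± 0.12 in saline and 7.85 ± 0.12 in tunicamycin legs. The Filip1 call was at the edge: its adjusted p in limma was 0.0506 without the mouse block, 0.116 after another quantile normalization and between 0.0804 and 0.108 when mouse 2, 3, 4, 6, 7 or 8 was left out. Sh3rf1, the scaffold that Sh3rf2 is known to lower, had a change of 0.0092 ± 0.061 (SE, limma adjusted p = 0.949). The arrays read RNA and not protein, so whether Sh3rf1 protein differed between the legs was not tested. Sh3rf3 had a change of 0.095 ± 0.053 (SE, limma adjusted p = 0.292). Around Hivep2, Hivep1 had a change of 0.0015 and Hivep3 of -0.073. For Smco1, the proteins of the same name class, Smco2, Smco3 and Smco4, had changes of -0.077, -0.0059 and -0.14, and Smco4 came closest (adjusted p = 0.152, limma). Their saline means were 4.24, 5.05 and 5.40, near or under the array medians, where that of Smco1 was 8.45. Such low signals leave little room for a fall.

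Among the genes next to the 5 along the chromosome, by order in the RefSeq table of GRCm38.p6, limma called 0 of 11. Over all genes it called 10.9%, and 11 genes are too few to be set apart from that share. Aig1, beside Hivep2, was the 1 neighbour with an unadjusted limma p under 0.05 (0.0343). The change of Aig1 was 0.096 ± 0.041 (SE, limma adjusted p = 0.155), upward, beside -0.47 for Hivep2. Cmss1, which overlaps Filip1l, had a change of 0.0060 ± 0.061 (SE), with a mean of 7.00 in both groups. Septin7 and B3gat1, on either side of Eepd1, had changes of 0.020 and 0.0062, and Rnf168 and Mir1946a beside Smco1 of -0.0019 and -0.046. Grxcr2 and Plac8l1 beside Sh3rf2 had changes of 0.040 and 0.076. The remaining neighbours of Filip1l, Tmem30c and Col8a1, had 0.00083 and -0.0075, and Adgrg6 beside Hivep2 had -0.021. Tmem30c, with a saline mean of 4.59, also lay under the array medians.

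**Figure D4:**
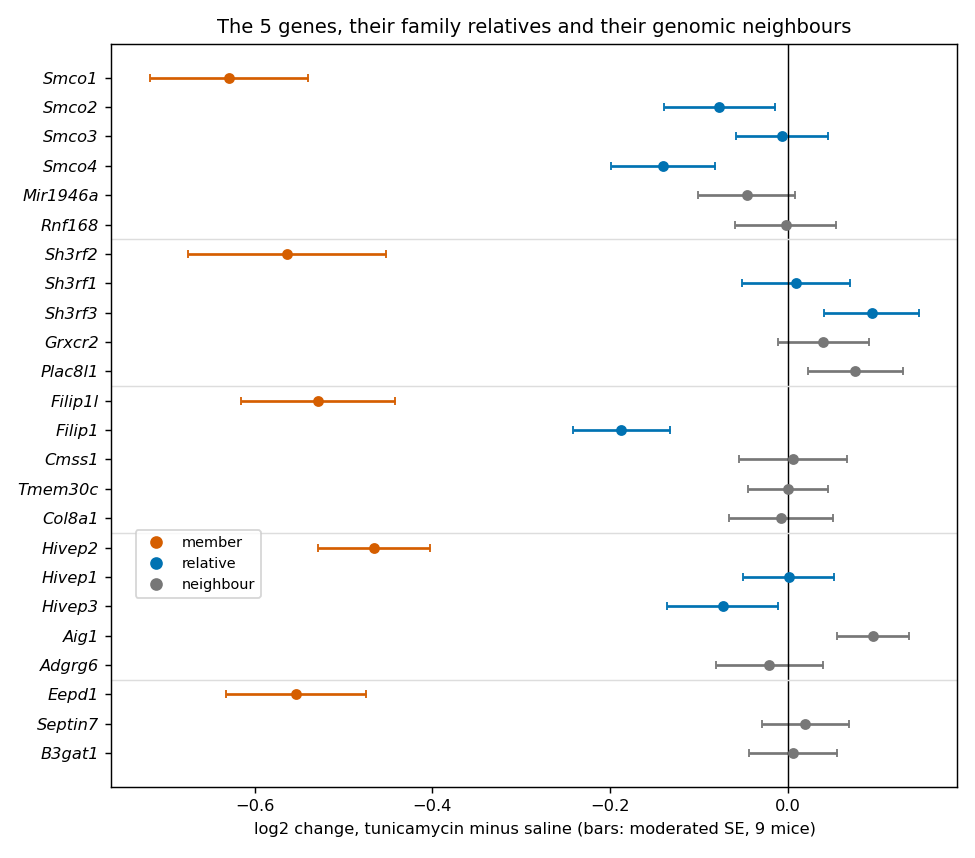
Log2 change (x axis, tunicamycin minus saline, with bars for the moderated SE over 9 mice) of the 5 genes, 8 family relatives and 11 genomic neighbours, grouped by gene. The 5 genes lie between -0.63 and -0.47, Filip1 at -0.19 and the other relatives and neighbours between -0.14 and 0.096.

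The pathways in which these genes are known to work were read gene by gene in the same limma fit, beside a median change of 0.0064 over all genes. Of all genes, 10.9% were called, 6.15% lower and 4.72% higher. In the lists of more than 2 genes, 0 to 2 calls are too few to set a list apart from these shares. For the JNK cascade and protein phosphatase 1, the setting of Sh3rf2, 1 of 16 genes was lower and 0 higher: Ppp1cb, a catalytic subunit of that phosphatase, fell by 0.19 ± 0.048 (SE; adjusted p = 0.0276, lost without mouse 2, 3, 4, 6 or 7). Jun (-0.15) and the kinase Mapk8 (-0.15) missed the threshold in limma, with adjusted p of 0.0858 and 0.0569. For the filamins, the partners of the Filip1 family, 2 of 2 rose: Flnc, the muscle filamin, by 0.46 ± 0.099 (SE; limma adjusted p = 0.0124) and Flna by 0.40 ± 0.10 (SE; limma adjusted p = 0.0255, lost when any 1 of mice 2 to 7 was left out). The filamins did so in 7 of 9 mice on average, and not in mice 1 (-0.18) and 9 (-0.053), in which Filip1l nevertheless fell. For canonical WNT signalling, which Filip1l restrains in human cells, 1 of 11 genes was called, Myc, a target gene, which rose by 0.63 ± 0.088 (SE; limma adjusted p = 0.00154) in 9 of 9 mice, while the targets Ccnd1 and Axin2 had changes of 0.27 (limma adjusted p = 0.0710) and -0.050 (limma adjusted p = 0.490).

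For NF-kB, beside Hivep2, 4 of 10 genes were higher and 0 lower in limma, with a list median of 0.157. Relb rose by 0.32 ± 0.047 (SE; adjusted p = 0.00187, limma) and Rela by 0.22 ± 0.045 (SE; adjusted p = 0.0111, limma), each in 9 of 9 mice. Tnfaip3, which restrains the pathway, rose by 0.47 and the inhibitor Nfkbie by 0.29. For BMP and SMAD signalling, 2 of 12 genes were lower in limma and 0 higher: the inhibitory Smad7 fell by 0.34 ± 0.069 (SE; adjusted p = 0.00884) in 9 of 9 mice, and the receptor Bmpr1b by 0.22 ± 0.061 (SE; adjusted p = 0.0373, lost when any 1 of mice 2 to 7 was left out). For LXR and sterol efflux, beside Eepd1, 2 of 10 were lower and 0 higher, with a list median of -0.15. The cholesterol exporter Abca1 fell by 0.30 ± 0.083 (SE; limma adjusted p = 0.0361) and Mylip, an LXR target that removes the LDL receptor, by 0.37 ± 0.10 (SE; limma adjusted p = 0.0374), both lost when any 1 of mice 2 to 7 was left out, Abca1 also without mouse 9, while Abcg1 had a change of 0.10. The receptor itself, Nr1h3, had a change of 0.050. For the replication fork genes, the other setting of Eepd1, limma called 0 of 9, and 2 had an unadjusted p under 0.05, Rpa3 with a change of 0.19 and Nbn with one of -0.11. The PAR-bZIP family and its antagonist Nfil3 also gave 0 calls of 4 in limma, although 4 of 4 had an unadjusted p under 0.05. Dbp had a change of -0.29 and Nfil3 one of 0.14 (limma adjusted p of 0.0840 and 0.0973).

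The ER chaperones were read as the transcript response to the stress in each mouse, and no other measure of the stress was analysed. Of these, 15 of 15 rose (limma), with a median change of 1.28. The mean over the list ran from 0.58 in mouse 9 and 0.68 in mouse 1 to 1.81 in mouse 3. The fall of Eepd1 went with the chaperone rise most closely, with an r of -0.905 (rho -0.70), followed by Smco1 (r = -0.772), Hivep2 (r = -0.649) and Sh3rf2 (r = -0.537), while Filip1l showed an r of -0.0386 (n = 9 mice each). Without mice 1 and 9, which had the smallest chaperone rise, r was -0.552 for Eepd1, -0.37 for Smco1, -0.233 for Sh3rf2, -0.0402 for Hivep2 and 0.271 for Filip1l, so the relation rested largely on those animals. All these values come from the same arrays and are descriptions.

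**Figure D5:**
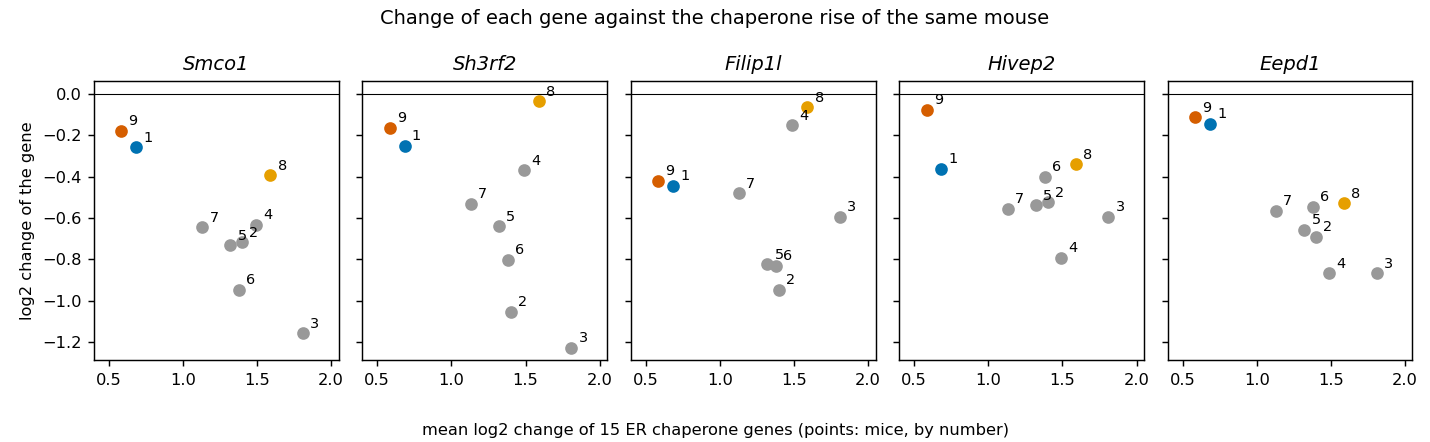
Log2 change of each of the 5 genes (y axis) against the mean log2 change of 15 ER chaperone genes (x axis), 1 point per mouse with its number. Mice 1 and 9 sit at the left with chaperone rises of 0.68 and 0.58, and Filip1l (r = -0.0386) shows no slope where Eepd1 (r = -0.905) does.

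In bulk tissue, fewer cells of a type and less RNA per cell cannot be told apart. The marker counts below stand beside 6.15% of all genes called lower and 4.72% called higher in limma. Of 12 myofibre markers, 0 were called in limma and 1, Casq1, had an unadjusted p under 0.05. Their mean ran from 11.8 to 12.0 in saline and 11.8 to 11.9 in tunicamycin legs, and none was near 0. Single markers ran from 9.5 (Ckm) to 12.9 (Myh4) in saline legs. Array signals understate changes, so 0 calls do not show that fibre RNA was steady. The list change had an r of 0.792 with Smco1, 0.633 with Hivep2, 0.614 with Eepd1, 0.577 with Sh3rf2 and 0.364 with Filip1l. Without mice 8 and 9 these were 0.673, 0.318, 0.528, 0.208 and -0.0628 in the same order. Of 10 smooth muscle and pericyte markers, 4 were lower in limma (Myh11, Tagln, Rgs5 and Abcc9, from -0.27 to -0.26). Tagln was lost when any 1 of mice 2 to 6 was left out, and Abcc9 had the highest saline level of the list (10.4). The others were not called, Acta2 and Cnn1 having changes of 0.049 and 0.0011. The list mean, 7.31 to 7.54 in saline and 7.24 to 7.43 in tunicamycin legs, was lower in 9 of 9 mice by 0.0097 to 0.21. Its change had an r of 0.714 with Sh3rf2, 0.618 with Smco1, 0.602 with Filip1l, 0.552 with Eepd1 and 0.253 with Hivep2. Without mice 1 and 8 these were 0.63, 0.331, 0.6, 0.238 and -0.035 in the same order. Of 10 macrophage markers, 4 were higher and 1, Cd163, was lower, with list means of 6.03 to 6.76 in saline and 6.30 to 7.24 in tunicamycin legs, and the list rose in 7 of 9 mice, not in mice 1 (-0.12) and 9 (-0.35). Its change had an r of -0.848 with Eepd1, -0.795 with Smco1, -0.709 with Hivep2, -0.638 with Sh3rf2 and -0.455 with Filip1l. Without mice 1 and 9 these were -0.103, -0.438, -0.05, -0.581 and -0.875 in the same order. Of 9 fibroblast markers 2 were higher, and of 10 endothelial, 7 adipocyte, 8 satellite cell and 6 Schwann cell markers limma called 0, with an unadjusted p under 0.05 for 1 satellite cell marker (Vcam1) and 1 Schwann cell marker (Sox10). The part of any of these cell types in the falls of the 5 genes was not tested.

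In the gene lists of the study, which rest on chromatin marks of other samples, Filip1l is among the muscle-identity genes (MUSCLE-ID), Hivep2 and Eepd1 among the ubiquitously marked genes (UBQ), and Smco1 and Sh3rf2 in neither. The 5 genes therefore did not share a class there, although each was lower in 9 of 9 mice.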

How the data were processed

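Total RNA of 18 gastrocnemius muscles was hybridised to MoGene-2_0-st arrays. The deposited values are log2 signals, 1 per probeset, which the authors made in Partek by RMA background correction, quantile normalization and median polish. Array medians ran from 4.99 to 5.07 and correlations between arrays from 0.982 to 0.991, and precision is limited by the 18 arrays. Single-symbol probesets were averaged to 22180 genes, and each of the 5 genes had 1 such probeset. No build is named for the values.

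A limma fit (version 3.58.1, R 4.3.3) with the mouse as a block gave two-sided moderated p-values, adjusted by Benjamini-Hochberg at a threshold of 0.05, with code tested on simulated data. The labels place both legs in 1 animal. Deviations of the legs of a mouse from the group means correlated with a median r of 0.122, against -0.0127 for legs of different mice. The r was -0.0277 in mouse 1 and -0.0386 in mouse 9, so this measure does not show their pairing. Both legs of mouse 9, and no other legs, had a low Xist signal, which goes with its pairing. The pairing of mouse 1 rests mainly on the labels. Correlations among the 5 genes were computed with NumPy 2.4.6, with the ranks for rho from SciPy 1.17.1, and are given with no p.

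Named genes were the 5 genes, their relatives, the nearest measured neighbours, up to 3 called genes per direction and pathway list by smallest p, and 3 genes of most similar change per gene (predicted genes and small RNAs left out). Genes named beyond this rule, the uncalled pathway genes, Nfkbie and the markers, were picked after their values were seen. The members and lists were chosen with earlier results of these data known. Alternatives tried were no block, another quantile normalization, array centring, the brightest probeset, probeset level, array weights, only genes above the median level, a robust and trended prior, and leaving out each mouse or mice 1 and 9. Promoter windows and gene order came from RefSeq tables.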

Additional observations from a re-analysis of the deposited data

Results flagged for a closer look

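Of 102 sets of 9 values checked for a single mouse far from the others, 3 held one, and chance flags about 5% of such sets. None of the 15 sets of the 5 genes (saline level, tunicamycin level and change of Smco1, Sh3rf2, Filip1l, Hivep2 and Eepd1) did. The mean change of the LXR and sterol efflux list was 0.5657 in mouse 1, against -0.66 to -0.053 in the other 8 mice. The mean change of the adipocyte markers was 1.762 in the same mouse, against -1.23 to 0.281 elsewhere. The mean change of the fibroblast markers was -0.4162 in mouse 9, against 0.022 to 0.315 elsewhere.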

How the results depend on the processing

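The falls of the 5 genes moved by less than 1 SD under every alternative run. Leaving out 1 mouse at a time gave ranges of -0.69 to -0.56 for Smco1, -0.63 to -0.48 for Sh3rf2, -0.59 to -0.48 for Filip1l, -0.51 to -0.42 for Hivep2 and -0.61 to -0.51 for Eepd1. The mean of both Hivep2 probesets, an alternative chosen after seeing the data, was -0.42. Without the replicate block limma called 1859 genes instead of 2410, and 0 instead of 1 of the relatives and neighbours, where another quantile normalization also called 0. Leaving out 1 mouse gave 1304 to 2787 genes, 0 to 1 relatives and neighbours, 22 to 32 pathway genes (27 with all mice) and 7 to 18 marker genes (11 with all mice). Leaving out any 1 of mice 2 to 7 gave 1304 (mouse 3) to 1565 genes (mouse 2), and the marker count was 7 without mouse 2, 5 or 6 and 18 without mouse 1. Without mice 1 and 9 there were 19 marker calls, and the median r of the 5 genes with the chaperone list went from -0.649 to -0.233 (-0.82 to -0.421 without 1 mouse). The median r between saline levels, 0.553, ran from 0.181 (without mouse 8) to 0.604, and that between changes from 0.519 to 0.759. The share of calls that were lower was 56.6%, but 69% after array centring, which put the median of all genes at -0.012, 49.4% after another quantile normalization and 49.8% without the block. Of 69 other named genes, 35 were called, and 0 of these changed sign under any alternative, while 11 of the 34 uncalled genes did, among them Sh3rf1, Hivep1, Smco3, Cmss1 and Col8a1. Over all alternatives 74 checks lost a call, 34 gained one and 1125 did neither. Without the replicate block 7 of the 35, Filip1, Ppp1cb, Abca1, Bmpr1b, Cd163, Apol6 and Mlxipl, missed the threshold, and Sox10 passed it. The cause was not tested. The genes are read by 1 probeset each, so a probeset effect cannot be separated from the gene, and 24 h after injection is the only time measured.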
